A study of Mus musculus with 6 samples.

Results

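A set of 10 genes of glucose use and of the response to low oxygen was examined in B16F10 mouse melanoma cells depleted of OSGEP. The genes were Hif1a, Slc2a1, Hk2, Pfkp, Aldoa, Pgk1, Ldha, Pdk1, Vegfa and Bnip3, chosen by name and matched to 11 of the 55487 rows of the count table. Aldoa matched a second row, which held 4 to 14 counts per library and was kept apart, so each gene is described by 1 row. All 10 genes were among the 12669 genes expressed highly enough to be tested.

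B16F10 is a mouse melanoma cell line. Control cells (shCtr, n = 3) were infected with a scramble shRNA and depleted cells (shOSGEP, n = 3) with the shRNA numbered 2 against OSGEP, the subunit of the KEOPS complex that transfers the t6A modification onto tRNAs reading codons that begin with A. Each library came from its own infection of this 1 line with 1 hairpin, so p-values measure the spread between infections only. The labels give wild-type control cells and OSGEP knockdown cells grown in the same medium, and name no low oxygen treatment in either group.

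Cells that sense low oxygen stabilise HIF-1 alpha, the protein made from Hif1a, which pairs with a constant partner and binds a short DNA core in the promoters of its target genes. Its targets include glucose transporters, most glycolytic enzymes, the kinases that close pyruvate entry into mitochondria, the angiogenic growth factor VEGF-A and mitophagy receptors. Because HIF-1 alpha is controlled mainly by protein stability, the level of Hif1a mRNA is not a measure of its activity, and in melanoma several of these genes are also driven by other factors such as MYC.

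The letters of the HIF core were looked up in the promoters first, because it is the sequence by which HIF target genes are commonly recognised. The core was searched as ACGTG and as GCGTG on both strands of the 250 bases before each RefSeq transcript start (GRCm38.p6). A CACGTG palindrome reads as ACGTG on both strands and was counted on both. At least 1 core was found for 10 of the 10 genes, in 12 of their 15 windows, and in 38.6% of all 32851 promoter windows. The share of all windows was 16.6% for ACGTG, 28.2% for GCGTG and 6.02% for the palindrome, so such letters are common in mouse promoters and mark no binding by themselves. The windows of 5 genes with different results below are printed 5′ to 3′ on the gene's own strand, with core letters of either strand in capitals.
Ldha: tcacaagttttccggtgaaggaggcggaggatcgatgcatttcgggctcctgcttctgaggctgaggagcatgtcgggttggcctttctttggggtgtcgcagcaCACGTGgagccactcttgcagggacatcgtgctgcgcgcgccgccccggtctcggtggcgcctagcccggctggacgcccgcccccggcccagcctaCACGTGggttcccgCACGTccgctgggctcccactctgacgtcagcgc
Pgk1: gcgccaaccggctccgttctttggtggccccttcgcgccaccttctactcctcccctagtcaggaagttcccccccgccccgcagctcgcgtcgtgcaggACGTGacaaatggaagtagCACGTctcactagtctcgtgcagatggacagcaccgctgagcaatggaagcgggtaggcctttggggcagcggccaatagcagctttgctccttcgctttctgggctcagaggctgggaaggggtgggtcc
Hk2: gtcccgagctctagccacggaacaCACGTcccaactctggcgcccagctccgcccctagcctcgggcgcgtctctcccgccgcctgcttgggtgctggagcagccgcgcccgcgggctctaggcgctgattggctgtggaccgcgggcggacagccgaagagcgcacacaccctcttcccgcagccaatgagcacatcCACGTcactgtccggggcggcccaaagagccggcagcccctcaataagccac
Bnip3: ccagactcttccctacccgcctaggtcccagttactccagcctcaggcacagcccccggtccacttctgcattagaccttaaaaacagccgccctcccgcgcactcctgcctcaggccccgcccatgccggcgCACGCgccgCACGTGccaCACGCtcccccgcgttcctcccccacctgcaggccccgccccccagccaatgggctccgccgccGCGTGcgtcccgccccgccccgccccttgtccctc
Vegfa: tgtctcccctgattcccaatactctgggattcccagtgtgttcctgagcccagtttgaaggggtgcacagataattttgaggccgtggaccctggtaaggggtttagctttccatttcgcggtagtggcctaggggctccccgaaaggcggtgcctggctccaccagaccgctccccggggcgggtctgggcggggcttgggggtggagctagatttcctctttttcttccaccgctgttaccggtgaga

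The Ldha window (chr7:46845554-46845803, plus strand) lies inside the Ldha gene as annotated by GENCODE, upstream of the RefSeq start. It held 5 cores, of which 4 came from 2 CACGTG palindromes. The Pgk1 window (chrX:106186850-106187099, plus strand) held 2 cores and the Hk2 window (chr6:82774455-82774704, minus strand) held 2. In the Bnip3 window (chr7:138909507-138909756, minus strand) 5 cores were found, and the last bases of this window overlap the first exon of a Bnip3 transcript with a retained intron. The Vegfa window (chr17:46032378-46032627, minus strand) held 0 cores, while a second RefSeq start inside the gene had 2 in its window (chr17:46025164-46025413). This says only that the letters are not in that first window.

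Libraries held between 18915587 and 29487384 counts. Osgep was lower in every shOSGEP library (0.542 to 5.52 CPM, with CPM standing for counts relative to the TMM-scaled library size) than in every shCtr library (20.6 to 58.6 CPM). The library shCtr replicate 2 stood apart, with a TMM factor of 0.690 against 1.04 to 1.14 in the other 5 libraries and 0.585% of its counts on mitochondrial genes against 1.30% to 4.75%. Trends on GC content and transcript length explained 63.5% of the variance of its deviations from the gene means, and between 17.6% and 54.2% in the others. Of the melanocyte markers 8 of 8 were tested, and their summed level was 17668 to 31493 CPM in shCtr and 3697 to 18933 CPM in shOSGEP, lowest in shOSGEP replicate 2. Fibroblast markers summed to 5.51 to 11.6 CPM in shCtr and 13.7 to 21.9 CPM in shOSGEP, with Dcn at 0 in all libraries, and 3 of the 6 were tested. Immune markers summed to 3.69 to 7.47 CPM and 1.01 to 3.99 CPM, with 3 of 6 at 0 throughout (Ptprc, Adgre1 and Cd3e). Endothelial markers summed to 2.91 to 7.57 CPM and 2.83 to 5.81 CPM, with 2 of 5 at 0 (Cdh5 and Kdr), and keratinocyte markers reached at most 0.0492 CPM. The part of these differences in the results below was not tested. All samples are cultures of the B16F10 line. In such bulk samples, fewer cells expressing a marker cannot be told apart from less of its RNA per cell.

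The comparison of shOSGEP with shCtr asks which transcripts differ once OSGEP is depleted. Of the 10 genes, 5 had a positive Log2FC and 5 a negative one, where 47.3% and 52.7% of all genes tested did so, with a median of -0.01 against -0.03 over all genes tested. By the quasi-likelihood test of edgeR, adjusted by Benjamini-Hochberg, none had an adjusted or even an unadjusted p below 0.05, and the adjusted p was 1.00 for each of the 10. Of all genes tested this test called 0% at the adjusted threshold and 2.02% at the threshold of the study (Log2FC beyond 0.5 with an unadjusted p under 0.05), with 1.59% higher and 0.426% lower. DESeq2, fitted over the same genes, called 14 genes after adjustment (0.111%), none of them among the 10. At an unadjusted p under 0.05 it gave 2.92% of all genes and 1 of the 10, Vegfa. Vegfa had the highest Log2FC of the 10 (1.49) and Ldha the lowest (-0.93). The groups did not overlap for 1 of the 10 genes, Hk2, against 6.36% of all genes tested (3.49% higher and 2.87% lower in shOSGEP).

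**Figure D1:**
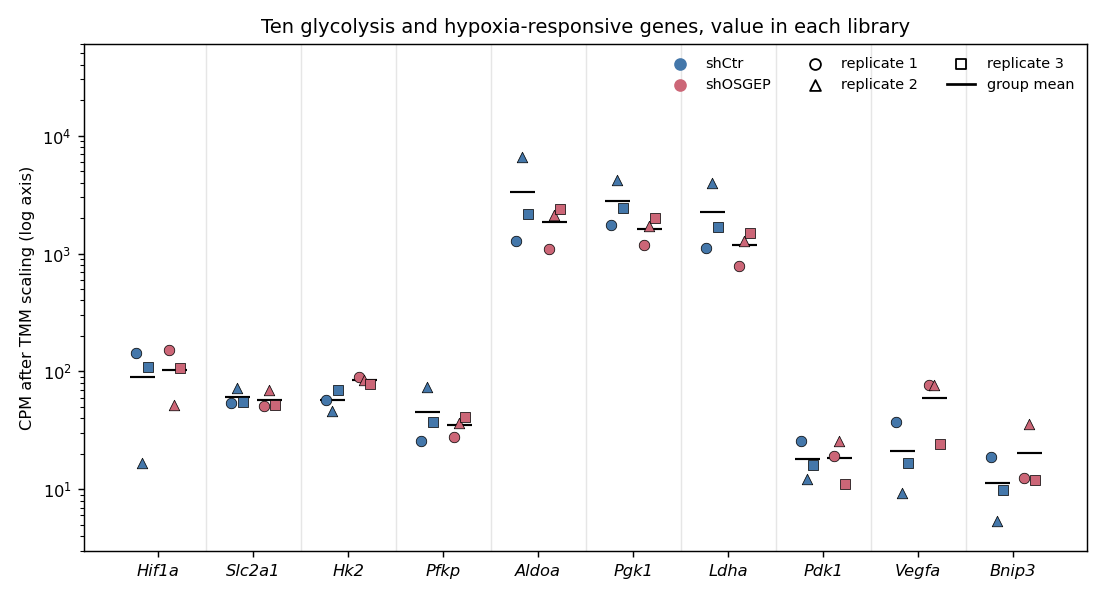
Level of each of the 10 genes in each library, in CPM after TMM scaling on a log axis, with shCtr in blue, shOSGEP in red, a marker shape per replicate number and a line at each group mean. Aldoa, Pgk1 and Ldha sit highest and have their top value in shCtr replicate 2 (triangle), while the groups separate fully only for Hk2, with 45.8 to 69.4 CPM in shCtr and 77.5 to 89.7 CPM in shOSGEP.

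Levels differed widely between the genes. Per kilobase of transcript, the median level over the 6 libraries was 1381 CPM for Aldoa, 1024 CPM for Pgk1 and 764 CPM for Ldha. Their ranges over libraries overlapped. Within every single library, however, Ldha was the lowest of these enzymes. Pgk1 lay above Aldoa in shCtr replicate 1 (960 against 828 CPM per kilobase) and below it in the other libraries. The other 7 genes had medians from 3.39 CPM per kilobase for Pdk1 to 23.0 for Hif1a, and every library of Ldha (432 CPM per kilobase or more) lay above every library of these 7 (at most 32.0). Neighbours in this lower order overlapped in range.

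Hif1a (ENSMUSG00000021109, chromosome 12, 73901375 to 73947530, plus strand) encodes the oxygen-regulated subunit itself. Its level was 143, 16.9 and 110 CPM in shCtr replicates 1, 2 and 3 and 151, 52.0 and 108 CPM in shOSGEP replicates 1, 2 and 3. Both replicate 2 libraries were low, shCtr replicate 2 by far the lowest, and the groups overlapped. The means were 90.005 ± 65.5 CPM and 104 ± 49.8 CPM (SD, n = 3 each), and the Log2FC was 0.20 (SE 0.74). Within replicate numbers the log2 ratio of shOSGEP to shCtr was 0.08, 1.62 and -0.03. After removal of the GC and length trends the same ratios were 0.01, -0.06 and 0.03, and the large replicate 2 ratio was no longer present. The Hif1a transcript has a GC content of 41.3%, at percentile 8.82 of the genes tested.

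Slc2a1 (ENSMUSG00000028645, chromosome 4, 119108711 to 119137983, plus strand) encodes GLUT1, the main glucose importer of many tumour cells. It was found at 54.3, 72.7 and 54.9 CPM in shCtr against 51.1, 70.0 and 51.6 CPM in shOSGEP. Same-numbered libraries were close to each other, and replicate 2 was the highest of each group. The log2 ratios were -0.09, -0.05 and -0.09 and the Log2FC was -0.07 (SE 0.39). After removal of the trends the ratios ran from -0.15 to 0.42.

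Hk2 (ENSMUSG00000000628, chromosome 6, 82725025 to 82774454, minus strand) encodes hexokinase 2, which traps imported glucose by phosphorylation. Its level was 57.6, 45.8 and 69.4 CPM in shCtr and 89.7, 84.4 and 77.5 CPM in shOSGEP. Every shOSGEP library lay above every shCtr library, with replicate 3 the closest pair. The means were 57.6 ± 11.8 CPM and 83.8 ± 6.11 CPM (SD, n = 3 each), a difference of 1.46-fold (Log2FC 0.54, SE 0.38). The unadjusted p was 0.189 in the edgeR quasi-likelihood test, and the exact permutation test, two-sided, gave 0.1, which is the smallest p that 3 libraries against 3 allow. The log2 ratios were 0.64, 0.88 and 0.16, and 0.53, 1.04 and 0.20 without the trends. With offsets for GC content and length, Hk2 reached the threshold of the study (Log2FC 0.61, SE 0.25, edgeR unadjusted p = 0.0408, adjusted p = 0.812), as did 5.43% of all genes.

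Pfkp (ENSMUSG00000021196, chromosome 13, 6579768 to 6648777, minus strand) encodes the platelet form of phosphofructokinase, which commits sugar to glycolysis. It stood at 25.5, 73.1 and 37.3 CPM in shCtr against 27.6, 36.2 and 41.5 CPM in shOSGEP. Only shCtr replicate 2 was high, and the groups overlapped. The Log2FC was -0.37 (SE 0.49) with all libraries and 0.16 without shCtr replicate 2, and the ratios were 0.11, -1.01 and 0.15. Of its 31-base words, 17.4% also occur in Pitrm1 on the opposite strand, and reads of the pair cannot be told apart without strand.

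Aldoa (ENSMUSG00000030695, chromosome 7, 126795234 to 126800751, minus strand) encodes aldolase A, which splits the six-carbon sugar. Its level was 1282, 6625 and 2151 CPM in shCtr and 1083, 2128 and 2376 CPM in shOSGEP. Again shCtr replicate 2 alone was high. The Log2FC was -0.85 (SE 0.71) with all libraries and 0.12 without shCtr replicate 2. Replicate 3 had the opposite sign (0.14) to replicates 1 and 2 (-0.24 and -1.64). The second row named Aldoa (ENSMUSG00000114515, chromosome 7, 126800790 to 126809108) was found at 0.186 to 0.688 CPM.

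Pgk1 (ENSMUSG00000062070, chromosome X, 106187100 to 106203699, plus strand) encodes phosphoglycerate kinase 1, an ATP-forming step of glycolysis. It was found at 1752, 4182 and 2413 CPM in shCtr against 1182, 1716 and 1984 CPM in shOSGEP. The shOSGEP library was below the shCtr library of the same number in 3 of 3 pairs, while shOSGEP replicate 3 lay above shCtr replicate 1. The means were 2782 ± 1256 CPM and 1627 ± 408 CPM (SD, n = 3 each), 1.71-fold lower in shOSGEP. The Log2FC was -0.77 (SE 0.53), with an unadjusted p of 0.179 in the edgeR quasi-likelihood test and a two-sided exact permutation p of 0.2. It was -0.36 without shCtr replicate 2. The ratios were -0.57, -1.28 and -0.28, and -0.52, -1.37 and -0.29 without the trends. Pgk1 shares 68.2% of its 31-base words with the processed pseudogene Pgk1-rs7, which was assigned at most 100 counts in any library against at least 25398 for Pgk1.

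Ldha (ENSMUSG00000063229, chromosome 7, 46841475 to 46855627, plus strand) encodes the lactate dehydrogenase subunit that regenerates NAD+ by making lactate. Its level was 1118, 3988 and 1694 CPM in shCtr and 783, 1285 and 1490 CPM in shOSGEP. As for Pgk1, each shOSGEP library was below its same-numbered control and the groups overlapped. The means were 2267 ± 1518 CPM and 1186 ± 363 CPM (SD, n = 3 each), 1.91-fold lower in shOSGEP (Log2FC -0.93, SE 0.60, edgeR quasi-likelihood unadjusted p = 0.158). Without shCtr replicate 2 the Log2FC was -0.25 (SE 0.45). The ratios were -0.51, -1.63 and -0.19, and -0.47, -1.45 and -0.25 without the trends.

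Pdk1 (ENSMUSG00000006494, chromosome 2, 71873224 to 71903858, plus strand) encodes a kinase that inactivates pyruvate dehydrogenase and so keeps pyruvate out of the citric acid cycle. It was found at 25.5, 12.2 and 16.1 CPM in shCtr against 19.03, 25.6 and 10.99 CPM in shOSGEP. The ratio was negative in replicates 1 and 3 (-0.42 and -0.55) and positive in replicate 2 (1.06), and the Log2FC was 0.05 (SE 0.50). Without both replicate 2 libraries it was -0.47 (SE 0.39).

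Vegfa (ENSMUSG00000023951, chromosome 17, 46016993 to 46032369, minus strand) encodes VEGF-A, the growth factor that draws new vessels to hypoxic tissue. Its level was 37.1, 9.34 and 16.6 CPM in shCtr and 76.4, 77.0 and 24.4 CPM in shOSGEP. Each shOSGEP library was above its same-numbered control, and the groups overlapped only through shOSGEP replicate 3, which lay below shCtr replicate 1. The means were 21.0 ± 14.4 CPM and 59.3 ± 30.2 CPM (SD, n = 3 each). The fitted difference was 2.82-fold (Log2FC 1.49, SE 0.66), with an unadjusted p of 0.0518 in the edgeR quasi-likelihood test and a two-sided exact permutation p of 0.2. With the replicate number as a block, Vegfa reached the threshold of the study (Log2FC 1.51, SE 0.56, edgeR unadjusted p = 0.0387, adjusted p = 0.741). Within replicates 1, 2 and 3 it was 2.06-fold, 8.18-fold and 1.46-fold higher, and its log2 ratios of 1.04, 3.03 and 0.55 were 1.01, 3.07 and 0.58 without the trends. Leaving out both replicate 2 libraries gave a Log2FC of 0.90 (SE 0.63). Only 0.499% of its 31-base words occur in any other gene, and its GC content (50.9%) is near the median of the genes tested (50.1%).

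Bnip3 (ENSMUSG00000078566, chromosome 7, 138890836 to 138909519, minus strand) encodes a mitochondrial receptor for mitophagy and cell death signals. It was found at 18.9, 5.36 and 9.91 CPM in shCtr against 12.6, 36.1 and 12.1 CPM in shOSGEP. Only shOSGEP replicate 2 lay above every control, and the ratios were -0.59, 2.73 and 0.28. The Log2FC was 0.83 (SE 0.65) with all libraries, and 0.12 without shOSGEP replicate 2. Removal of the trends lowered the replicate 2 ratio to 1.15. Of its 31-base words 61.2% occur in the lincRNA AC160336.1, which was assigned at most 7 counts in any library.

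The genes were sorted by the sign of their ratios over the 3 replicate numbers. Hk2 and Vegfa were higher in shOSGEP in 3 of 3 pairs, a pattern shown by 17.6% of all genes tested. Slc2a1, Pgk1 and Ldha were lower in 3 of 3 pairs, a pattern shown by 17.2%, with the ratios of Slc2a1 only -0.09 to -0.05. Ratios of 1 sign in all pairs, as in these 5 genes, were found in 34.8% of all genes tested, and the other 5 had pairs of both signs. Across the 6 libraries log2 CPM of Aldoa, Pfkp, Pgk1 and Ldha moved together (Pearson r from 0.89 to 0.99, n = 6 libraries), with shCtr replicate 2 highest for each of the 4. Vegfa ran opposite to Pgk1 (r = -0.92) and with Bnip3 (r = 0.82), and Hif1a ran opposite to Aldoa (r = -0.92). These values are descriptions over 6 libraries that share depth and composition differences, chiefly those of shCtr replicate 2.

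**Figure D2:**
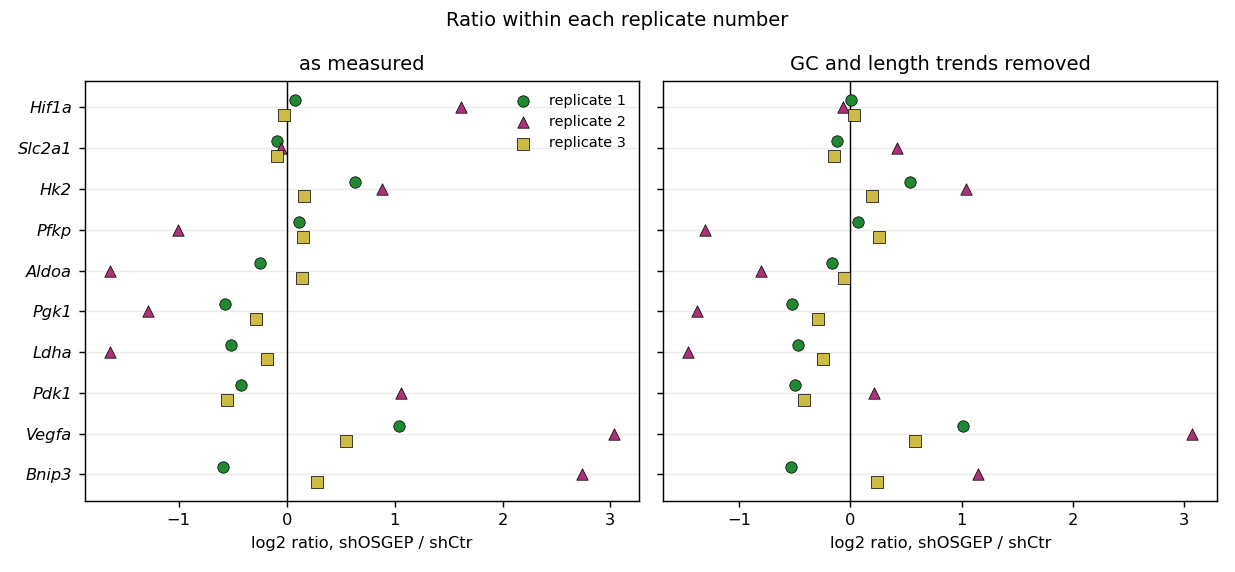
Log2 ratio of shOSGEP to shCtr within each replicate number for the 10 genes, as measured (left) and after trends on GC content and transcript length were removed from each library (right). Replicate 2 (triangles) lies farthest from 0 for most genes, Hif1a falls from 1.62 to -0.06 in replicate 2 once the trends are removed, and Vegfa and Hk2 stay to the right of 0 in all 3 pairs on both sides.

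The genes most like Hif1a in log2 CPM over the 6 libraries, among 10968 genes outside the set with a mean of at least 50 counts, were A530017D24Rik, Cdc73 and Rapgef6 (Pearson r 0.9995 or more). Their GC contents were 40.2%, 36.8% and 43.9%, beside 41.3% for Hif1a. The genes most like Ldha were Ube2j2, Eif4h and Ccne1 (r at least 0.998). They had GC contents of 50.8%, 55.5% and 52.7%, beside 51.5% for Ldha. Those most like Vegfa were Sdc2, Rad9b and Pon2 (r at least 0.991). Their GC contents of 41.6%, 44.8% and 46.9% were below the 50.9% of Vegfa. The part of GC content in these similarities was not tested. Each value is a description over the same 6 libraries.

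The wider glycolysis and glucose uptake list held 33 genes, of which 28 were tested. A negative Log2FC was found for 22 of the 28 and a positive one for 6, with a median of -0.72, while 52.7% of all genes tested had a negative Log2FC and their median was -0.03. By the edgeR test none of the 28 had an adjusted or an unadjusted p below 0.05, against 2.02% of all genes at the latter. At an unadjusted p under 0.05 DESeq2 gave 2 of the 28 (Eno2 and Aldoc), against 2.92% of all genes, and 0 after adjustment. With the replicate block edgeR gave 3 of the 28 (Eno2, Aldoc and Slc16a1), against 2.94% of all genes, and 0 after adjustment. With limma-voom, quality weights and the block, a fit chosen after the data were seen, 11 of the 28 had an unadjusted p under 0.05 and 8 an adjusted one, against 23% and 11.1% of all genes. The median log2 ratio was -0.09 in replicate 1, -1.38 in replicate 2 and 0.04 in replicate 3, so replicate 2 alone had a median far from 0. In shCtr replicate 2, 22 of the 28 genes lay above the mean of replicates 1 and 3, and the median distance over the 28 was 1.14 on the log2 scale. The list took 4.675% of all counts in shCtr replicate 2 and 1.62% to 2.99% in the other 5 libraries. Without shCtr replicate 2, 13 of the 28 had a negative Log2FC and the median was 0.02. Without both replicate 2 libraries the count was 14 and the median -0.02. Offsets for GC content and length left 22 with a negative Log2FC and a median of -0.40.

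**Figure D3:**
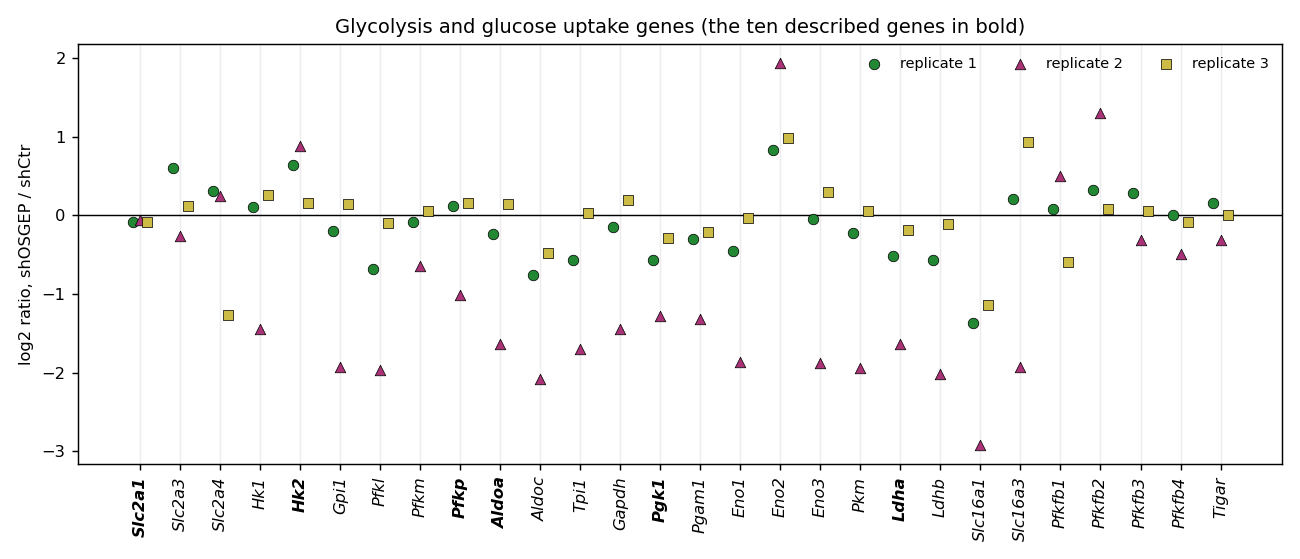
Log2 ratio of shOSGEP to shCtr within each replicate number for the 28 tested genes of glycolysis and glucose uptake, in pathway order, with members of the 10-gene set in bold. Most replicate 2 ratios (triangles, median -1.38) lie well below 0, and those of replicates 1 and 3 (medians -0.09 and 0.04) scatter around it.

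Within this list 9 genes were lower in 3 of 3 pairs and 3 were higher, where 17.2% and 17.6% of all genes tested did so. The lower ones were Slc2a1, Pfkl, Aldoc, Pgk1, Pgam1, Eno1, Ldha, Ldhb and Slc16a1, and the higher ones Hk2, Eno2 and Pfkfb2, all named here after their values were seen. With all libraries Eno1 and Eno2 differed in sign of Log2FC, whereas the aldolases Aldoa and Aldoc and the lactate dehydrogenase subunits Ldha and Ldhb were both negative. Enolase 2 (Eno2), the form typical of neurons, had 7.90, 15.2 and 6.87 CPM in shCtr and 14.1, 58.3 and 13.6 CPM in shOSGEP (Log2FC 1.52, SE 0.69, edgeR unadjusted p = 0.0584). Aldolase C (Aldoc) had 12.3, 58.9 and 17.2 CPM in shCtr and 7.26, 13.8 and 12.3 CPM in shOSGEP (Log2FC -1.41, SE 0.66, edgeR unadjusted p = 0.0655). The second lactate dehydrogenase subunit, Ldhb, had a Log2FC of -1.20 (SE 0.62), with ratios of -0.57, -2.02 and -0.11. Groups overlapped for each of these isoforms. With the replicate block Eno2 (Log2FC 1.25, SE 0.36, edgeR unadjusted p = 0.0154) and Aldoc (-1.11, SE 0.43, edgeR unadjusted p = 0.0435) passed the threshold of the study, as did 2.94% of all genes. So did Slc16a1, which encodes the lactate transporter MCT1 (-1.80, SE 0.45, edgeR unadjusted p = 0.00823). The adjusted p of each of the 3 was 0.741.

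Among the known targets induced by hypoxia, 32 of 41 genes were tested, 18 with a positive and 14 with a negative Log2FC (median 0.04). The edgeR test gave 0 at an adjusted and 0 at an unadjusted p under 0.05. DESeq2 and edgeR with the replicate block each gave Hmox1 and Vegfa at the latter, 2 of 32 against 2.92% and 2.94% of all genes, and 0 after adjustment. With limma-voom, quality weights and the block, 17 of the 32 had an unadjusted p under 0.05 and 6 an adjusted one, where 23% and 11.1% of all genes did. The median ratios were -0.07, 0.55 and -0.06 in replicates 1, 2 and 3. Without both replicate 2 libraries 12 were positive and 20 negative. Hmox1, which encodes the haem-degrading enzyme heme oxygenase 1, had 46.0, 187 and 74.7 CPM in shCtr and 101, 743 and 147 CPM in shOSGEP, higher in 3 of 3 pairs (Log2FC 1.69, SE 0.86). With the replicate block Hmox1 passed the threshold of the study (Log2FC 1.37, SE 0.33, edgeR unadjusted p = 0.00727, adjusted p = 0.741). Ero1l, an oxidoreductase of the endoplasmic reticulum, had ratios of 0.75, 3.05 and 0.27 (Log2FC 1.09, SE 0.65). Bhlhe40, a transcriptional repressor, had ratios of -0.28, -2.08 and -0.15 (Log2FC -0.77, SE 0.49).

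The HIF subunits and their regulators showed no common direction, with 9 of 16 tested genes positive and 7 negative (median 0.08). Egln1, the prolyl hydroxylase that marks HIF alpha subunits for destruction when oxygen is present, had 51.2, 69.5 and 50.3 CPM in shCtr against 40.4, 34.1 and 44.0 CPM in shOSGEP. These groups did not overlap (Log2FC -0.53, SE 0.38, edgeR unadjusted p = 0.205). That held for 1 of the 16 genes, against 6.36% of all genes tested (2.87% lower in shOSGEP). Epas1, which encodes HIF-2 alpha, had ratios of -0.87, -1.48 and -0.66 (Log2FC -0.85, SE 0.69). With the replicate block Epas1 passed the threshold of the study (-1.01, SE 0.36, edgeR unadjusted p = 0.0329, adjusted p = 0.741). Eloc, the elongin C subunit of the ligase that destroys HIF alpha subunits, had ratios of -0.05, 1.88 and 0.01 (Log2FC 0.53, SE 0.53).

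For the genes that govern pyruvate entry into mitochondria, 7 of 12 tested were positive and 5 negative (median 0.11). Pdp2, the phosphatase that reactivates pyruvate dehydrogenase and thus opposes Pdk1, had 20.3, 8.46 and 19.4 CPM in shCtr against 11.3, 4.18 and 10.6 CPM in shOSGEP. Its ratios were alike in the 3 pairs (-0.84, -0.9996 and -0.86), although the groups overlapped and the Log2FC of -0.88 (SE 0.57) had an edgeR unadjusted p of 0.161. With the replicate block Pdp2 passed the threshold of the study (-0.91, SE 0.30, edgeR unadjusted p = 0.0272, adjusted p = 0.741). Mpc1, a subunit of the mitochondrial pyruvate carrier, had ratios of -0.01, 1.86 and -0.13 (Log2FC 0.80, SE 0.55). Pdk3, a kinase of the same family as Pdk1, had ratios of 0.26, 1.14 and 0.03 (Log2FC 0.49, SE 0.42).

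Of the VEGF ligands and receptors, 7 of 11 were tested, 3 positive and 4 negative. Vegfc, the ligand of lymphatic vessels, had ratios of 0.40, 2.08 and 0.01 (Log2FC 0.92, SE 0.53). The other ligands Vegfb and Pgf had Log2FC of -0.89 (SE 0.57) and -0.98 (SE 0.65), so the ligands differed in direction. Among mitophagy receptors and partners, 4 of 8 tested genes were positive and 4 negative. The inner membrane receptor Phb2 had a Log2FC of -1.18 (SE 0.61) and the outer membrane receptor Fkbp8 one of -0.76 (SE 0.78), both with shCtr replicate 2 the highest library. In these 4 lists the edgeR test gave 0 genes at an adjusted and 0 at an unadjusted p under 0.05, and DESeq2 gave 1 at the latter, in the VEGF list, and 0 after adjustment. With the replicate block edgeR gave Epas1, Pdp2 and Vegfa at the latter, 1 in each of the HIF, pyruvate and VEGF lists, 0 in the mitophagy list and 0 after adjustment. These counts stand beside 2.92% (DESeq2) and 2.94% (block) of all genes. With limma-voom, quality weights and the block, 3 of 16, 4 of 12, 1 of 7 and 3 of 8 genes of the HIF, pyruvate, VEGF and mitophagy lists had an unadjusted p under 0.05, where 23% of all genes did. Adjusted, the counts were 1, 1, 1 and 0, where 11.1% of all genes passed.

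Since t6A serves tRNAs that read codons beginning with A, the share of such codons was computed for each of the 10 genes. It ran from 24.1% in Slc2a1 to 35.6% in Bnip3, with a median of 26.9% over 11559 genes tested. Bnip3 stood at percentile 97.6 and Hif1a (32.3%) at percentile 89.8, and Ldha and Pgk1 both had 30.9%. Among the genes with a positive Log2FC only Pdk1 (26.4%, Log2FC 0.05) lay below the median of 26.9%. Among those with a negative Log2FC, Slc2a1 and Aldoa (26.0%) lay below it. No protein or translation measurement was used here.

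Alternatives to the test were run for every gene. Under limma-voom with sample quality weights and the replicate as a block, 3 of the 10 genes passed an adjusted p under 0.05, where 1403 of all 12669 genes did (11.1%). These were Vegfa (Log2FC 0.95, adjusted p = 2.82e-08), Hk2 (0.50, adjusted p = 0.00682) and Pgk1 (-0.50, adjusted p = 0.0258), while Ldha missed the threshold (-0.44, adjusted p = 0.0509). That fit, chosen after the data were seen, weighted the replicate 2 libraries at 0.112 and 0.113 and those of replicate 1 at 4.54 and 4.604. It had 2 residual degrees of freedom per gene, beside 902.5 prior degrees of freedom borrowed from all genes. Its small p-values therefore rest mostly on a variance shared between genes. In the other 18 alternatives none of the 10 genes passed an adjusted p under 0.05. The Log2FC of Vegfa ran from 0.90 to 2.19 over the 19 alternatives, that of Hk2 from 0.30 to 0.75, that of Pgk1 from -1.04 to -0.36 and that of Ldha from -1.31 to -0.25. Each of the other 6 genes changed sign in at least 2 of them.

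**Figure D4:**
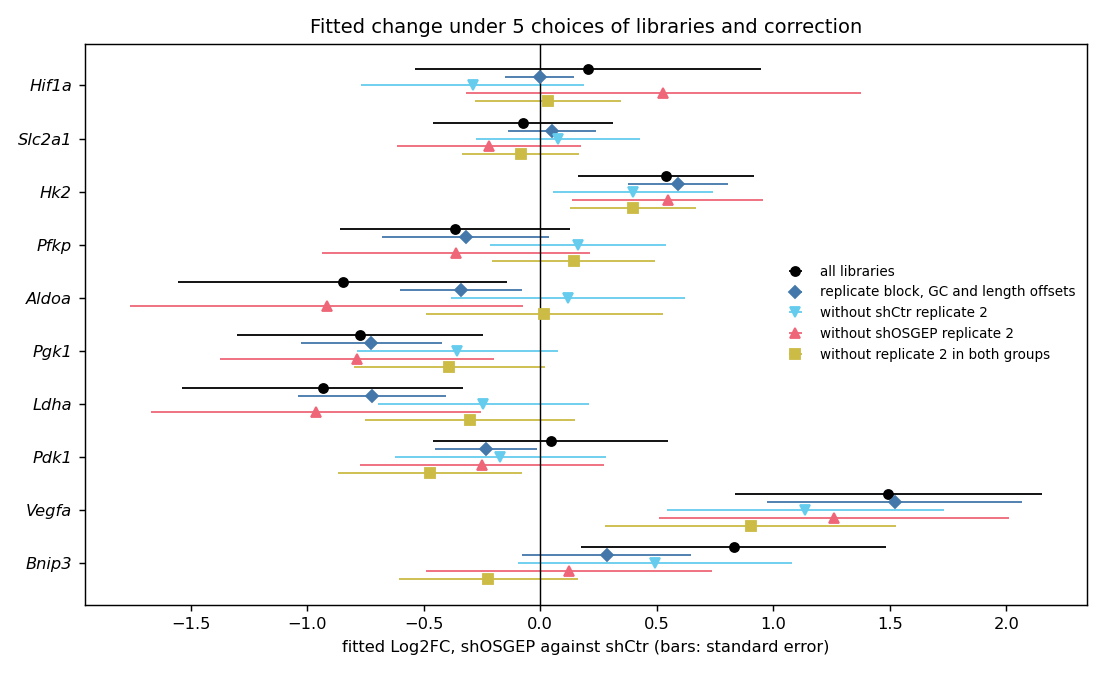
Fitted Log2FC of shOSGEP against shCtr with its standard error for the 10 genes, with all libraries, with a replicate block plus GC and length offsets, and without the replicate 2 libraries singly or together. Vegfa and Hk2 stay above 0 and Pgk1 and Ldha below 0 in all 5, while Aldoa moves from -0.85 to 0.12 and Pfkp from -0.37 to 0.16 without shCtr replicate 2.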

How the data were processed

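Polyadenylated RNA of 3 shCtr and 3 shOSGEP infections was sequenced in paired reads. Per the submitters' processing notes and the methods of the study, the authors trimmed reads with TrimGalore, aligned them to GRCm38 with STAR 2.6.1d and quantified genes with Salmon 1.4.0. The annotation release is not given in the sources used here. The values deposited by the authors are estimated counts for Ensembl genes as whole numbers, neither normalized nor filtered. Salmon assigns a read that fits several transcripts in proportion to their likelihood, so the counts of genes with near-identical copies are less certain, and the kit is not stated to keep strand.

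The 10 genes and all wider lists were chosen with earlier results of these data known. The named genes were the 10 members, Osgep, up to 3 further tested genes of each wider list with the smallest unadjusted p, and for Hif1a, Ldha and Vegfa the 3 genes most like them in log2 CPM. A gene that this rule names is not reported here.

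The deposited counts were filtered by filterByExpr (default settings, with a minimum count of 10 and a minimum total of 15), scaled by TMM and tested by edgeR 4.0.16 (R 4.3.3) with the two-sided quasi-likelihood F-test and no block, and p-values were adjusted by Benjamini-Hochberg over 12669 genes. Standard errors are the Log2FC divided by the square root of F. Same-numbered log2 ratios used CPM with a prior count of 2, and GC and length trends were natural splines with 5 degrees of freedom each. Depth was 18915587 to 29487384 counts per library, and 3 counts equal 0.116 to 0.147 CPM. This floor covers counting error only. The edgeR fits were run on simulated counts with known differences. Recovery of those differences was required only without the offsets and at a variation between libraries far below that of these data. Positions, lengths, codons and 31-base words came from GENCODE M21 (GRCm38), which held 99.5% of the identifiers, and promoters from RefSeq (GRCm38.p6).

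Pairing was checked by correlating, over genes, the deviations of same-numbered libraries from their group means, which gave 0.811, 0.557 and 0.196 for replicates 1, 2 and 3, each above the limit of 0.1. The highest value between different numbers was 0.491, which replicate 3 did not reach. Passing the limit therefore does not show that the replicate 3 libraries form a pair. The numbers come from the labels, which do not say what they mark, and same-numbered library names share a code. Alternatives were DESeq2 1.42.0, limma-voom 3.58.1 with sample quality weights, other scalings and filters, a replicate block, offsets for GC content and length, and leaving out libraries.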

Additional observations from a re-analysis of the deposited data

How the results depend on the processing

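Adjusted p thresholds of 0.1 and 0.01 and all scaling and filter choices left 0 of the 10 genes called at an adjusted p, and limma-voom with quality weights plus the replicate block, chosen after seeing the data, called 3. Over all genes DESeq2 called 14 at an adjusted p under 0.05, limma-voom with quality weights 3 and limma-voom with quality weights and the replicate block 1403. At the threshold of the study the count of 256 became 599 without a filter on low counts, 560 with limma-voom, 688 with GC and length offsets, 869 with these offsets and the replicate block, 1442 with limma-voom and the replicate block, and 67 to 453 when libraries were left out. Leaving out shOSGEP replicate 2 gave 67, shCtr replicate 1 453, shCtr replicate 3 167, shOSGEP replicate 3 390 and both replicate 3 libraries 163. The replicate block, which uses the pairing, gave 373. Of the 10 genes, 1 reached that threshold (Vegfa) with upper-quartile scaling, without a filter, with DESeq2, with limma-voom and with the replicate block, 2 (Vegfa and Hk2) with GC and length offsets, 2 with the offsets and the replicate block, 2 with limma-voom and the replicate block, and 0 to 1 when libraries were left out. The cause was not tested.

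Upper-quartile scaling moved the median Log2FC of all genes from -0.03 to 0.07. The median of the 10 genes was 0.10 with it, -0.12 with limma-voom and the replicate block, and -0.24 to 0.14 when libraries were left out. Signs turned as follows, and the cause was not tested. Slc2a1 was at 0.052 with upper-quartile scaling, 0.058 with GC and length offsets, 0.050 with the offsets and the replicate block, and -0.22 to 0.076 when libraries were left out, the highest without shCtr replicate 2, and 0.0050 without shOSGEP replicate 1. Pdk1 was at -0.24 with limma-voom, -0.12 with the offsets, -0.23 with the offsets and the replicate block, -0.43 with limma-voom and the replicate block, -0.47 without both replicate 2 libraries, and -0.25 to 0.39 when single libraries were left out, negative for 3 of the 6. Hif1a was at -0.0032 with the offsets and the replicate block, and -0.29 (without shCtr replicate 2) to 0.71 when libraries were left out. Pfkp was at 0.10 and Bnip3 at -0.30 with limma-voom and the replicate block. Pfkp ran from -0.65 to 0.16 and Aldoa from -1.23 to 0.12 when single libraries were left out, both highest without shCtr replicate 2. Without both replicate 2 libraries Pfkp was at 0.14, Aldoa at 0.018 and Bnip3 at -0.22. Eloc was at -0.0024 and Mpc1 at -0.016 with limma-voom and the replicate block, and at -0.030 and -0.064 without both replicate 2 libraries. Fkbp8 was at 0.091 with limma-voom, 0.25 without both replicate 2 libraries, and -1.18 to 0.56 when single libraries were left out. The count of glycolysis genes with a negative Log2FC, an alternative added after seeing the data, was 22 of 28 with all libraries. It ran from 13 (shCtr replicate 2 left out) to 24 (both replicate 1 libraries left out). With shOSGEP replicate 2 left out it was 23, and with neither replicate 2 library 14.

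With 3 libraries per group and a biological coefficient of variation of 0.566, differences of the size seen for Pgk1, Ldha and Vegfa did not pass the adjusted test. The direction of Vegfa, Hk2, Pgk1 and Ldha held in all 19 alternatives, while their sizes moved when replicate 2 libraries were left out. All alternatives reuse the same libraries, and the ratios of these genes already had the same sign in every pair. The share of all genes that keep their direction was not computed, so the kept direction is not separate evidence. No setting can tell a difference between infections that share a number from one between library preparations.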
